A study of Mus musculus with 6 samples.

Results

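A group of 10 genes that mark injured, regenerating or stressed kidney tubules were followed in whole kidneys of mice with a heart muscle disease that had not yet led to heart failure. They were chosen by gene symbol, and all 10 are among the 7373 genes of the deposited table: Spp1, Clu, Gdf15 and Cyr61, which encode secreted proteins; Krt8, Krt18, Krt7 and Vim, which encode intermediate filament proteins; Anxa2, a membrane-binding protein gene; and Cdkn1a, a cell cycle inhibitor gene. Messenger RNA was sequenced from frozen pieces of whole kidney of adult male FVB/N mice, 3 samples a group, and the column names place all 6 before any ischaemia. The transgenic mice overexpressed CryAB (the chaperone αB-crystallin) bearing the R120G missense change, under the α-myosin heavy chain promoter, which drives expression in cardiomyocytes. They were sampled before heart failure set in. The control mice were matched for age and sex; the labels give no ages. The labels speak of triplicates and do not say whether each sample is a separate animal, so the p-values below measure the spread between these samples.

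When tubule cells are injured they lose specialised functions and take on a simpler, repair-like state. In that state they switch on the filament proteins vimentin and the simple epithelial keratins, secrete osteopontin (Spp1) and clusterin (Clu), and stop dividing for a time through the inhibitor p21 (Cdkn1a). In the healthy kidney most of these genes are already active somewhere: keratins 7, 8 and 18 in the collecting duct and other distal epithelia, osteopontin and clusterin in distal segments, vimentin in podocytes, vessels and interstitial cells. Because each library holds RNA of the whole organ, fewer cells of a type and less RNA per cell cannot be told apart.

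The depth of the libraries, as the sum of estimated counts over the listed genes, ran from 23.5 M to 47.6 M. Control 3 was the deepest and stood apart: each of the 178 X and Y chromosome genes in the table was at 0 there, and no other gene was. None of the 10 genes lies on X or Y, but their p-values and intervals draw on a spread estimated over all genes. That spread, the biological coefficient of variation, was 0.259 over all genes and 0.133 with X and Y left out. For Spp1 the unadjusted p was 0.105 and 0.068 in these 2 fits (edgeR quasi-likelihood test). Several results that rest on control 3 are given with and without it. Of a list of differentiated tubule genes, which define kidney tissue, 24 of 24 were in the table. The injury genes Havcr1 and Lcn2 were looked for by symbol and were not in the table, which leaves out genes low in nearly all kidneys.

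In mm10 coordinates, each spanning the whole gene, the secreted proteins are encoded by Spp1 (gene ID 20750) at chr5:104435111.0-104441053.0, Clu (gene ID 12759) at chr14:65968483.0-65981548.0, Gdf15 (gene ID 23886) at chr8:70629393.0-70632470.0 and Cyr61 (gene ID 16007) at chr3:145646971.0-145649985.0. The others outside the keratin cluster are Vim (gene ID 22352) at chr2:13574311.0-13582826.0, Anxa2 (gene ID 12306) at chr9:69453683.0-69491792.0 and Cdkn1a (gene ID 12575) at chr17:29090979.0-29100722.0. Gene IDs of the keratins are 16691 for Krt8, 16668 for Krt18 and 110310 for Krt7.

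None of the 10 genes passed the test between the groups. Their log2 fold changes, transgenic minus control, ran from -0.39 for Spp1 to 0.23 for Vim, with a median of -0.06 beside 0.00 over all genes tested. Of the 10, 7 were lower and 3 higher, and in each the 3 transgenic values overlapped the 3 control values. Without control 3, 6 were lower and 4 higher, with a median of -0.02. The groups did not overlap in 0 of 10, beside 5.98% of the 7372 genes tested (3.05% higher and 2.93% lower), or 5.91% outside X and Y. The edgeR quasi-likelihood test, adjusted by Benjamini-Hochberg, called 0 of 10 and 0.0% of all genes. In this fit an unadjusted p under 0.05 was found in 112 genes, 1.52% of those tested, and in 0 of the 10. Every one of the 10 had an adjusted p of 0.997 by that test. The 95% interval beside each gene gives the differences these samples cannot tell from the estimate. With 3 samples against 3 an exact permutation test cannot go below p = 0.1, and the smallest p among the 10 genes was 0.2.

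**Figure D1:**
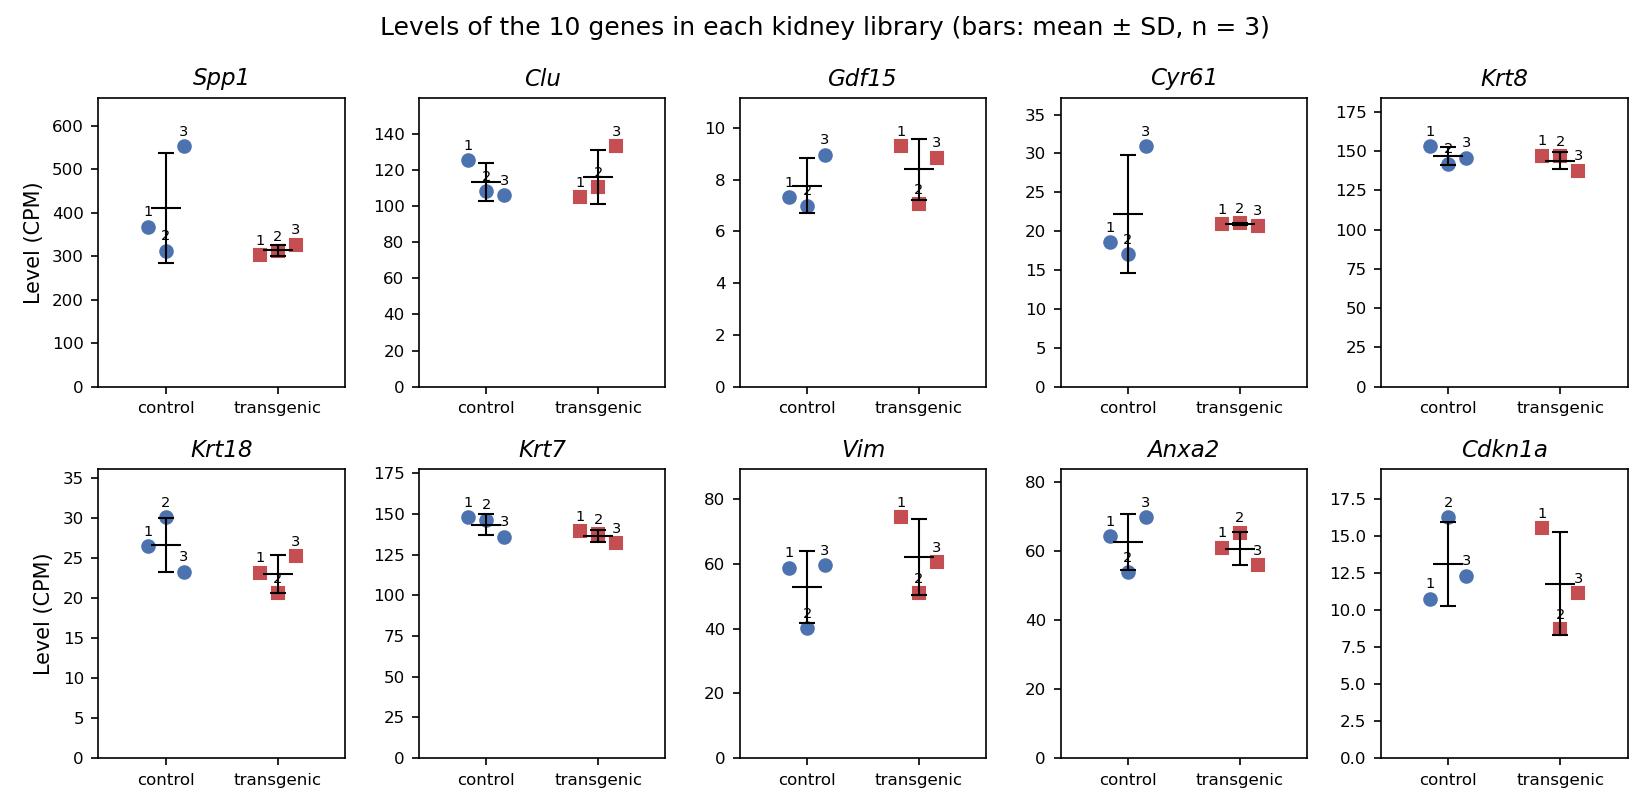
Levels of the 10 genes (CPM, y axes from 0) in the 3 control libraries (circles) and 3 transgenic libraries (squares), numbered by replicate; the bars are mean ± SD (n = 3). Spp1, Cyr61 and Anxa2 are highest in control 3, at 554, 30.9 and 69.7 CPM, and the groups overlap in every panel.

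Levels below are in CPM, counts scaled to library size. Spp1 encodes osteopontin, a secreted matrix phosphoprotein that binds integrins and CD44. It was the most abundant of the 10 and the one with the largest difference. It stood at 368, 312 and 554 CPM in controls 1, 2 and 3 and at 303, 312 and 327 in transgenic kidneys 1, 2 and 3. Control 3 was 1.503 times the next highest library, while the other 5 kidneys lay between 303 and 368. The control mean of 412 ± 126 CPM and the transgenic mean of 314 ± 12.0 (SD, n = 3 each) gave a log2 fold change of -0.39 ± 0.21 (SE; 95% interval -0.89 to 0.11). The unadjusted p was 0.105 and the adjusted p 0.997 (edgeR quasi-likelihood test), with an exact permutation p of 0.2, two-sided. Leaving out control 3 brought it to -0.12. The interval reaches from 0.539-fold to 1.08-fold, and these samples do not tell apart the differences inside it.

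Cyr61 encodes a matricellular protein of the CCN family, induced at once by growth factors and by stretch through the YAP and TEAD factors. Its pattern was like that of Spp1, with 1 high control. It stood at 18.6, 17.1 and 30.9 CPM in controls 1, 2 and 3, against 20.9, 21.0 and 20.7 in transgenic kidneys 1, 2 and 3. The coefficient of variation was 0.658% in the transgenic group and 34.3% in the controls, where counting alone gives 2.61% to 4.53% over the 6 libraries. The log2 fold change was -0.09 ± 0.23 (SE; 95% interval -0.64 to 0.47). Without control 3 the sign turned, to 0.23.

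Spp1, Cyr61 and also Anxa2 were highest in control 3. The Anxa2 stretch overlaps an annotated exon, so only the promoters of Spp1 and Cyr61 are shown. The correlation of these 2 genes over the 6 libraries rests on control 3: Pearson r was 0.84 and Spearman rho 0.086. The stretches shown are the 150 bases before the annotated start, from RefSeq on GRCm38.p6, 5′ to 3′. Cyr61 carries its newer name Ccn1 there. Capitals mark matches on either strand to the TATA box (TATAAA), the TEAD motif (GGAATG) and the SP1 box (GGGCGG).
Spp1 (chr5:104434961-104435110, plus strand): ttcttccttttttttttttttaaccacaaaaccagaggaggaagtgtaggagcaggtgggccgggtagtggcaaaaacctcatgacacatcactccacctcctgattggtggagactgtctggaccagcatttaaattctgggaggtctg
Cyr61 (chr3:145649986-145650135, minus strand): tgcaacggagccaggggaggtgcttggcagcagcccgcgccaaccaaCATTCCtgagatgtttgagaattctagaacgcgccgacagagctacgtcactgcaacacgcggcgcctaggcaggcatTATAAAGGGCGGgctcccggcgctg
In the Cyr61 stretch a TATA box begins 25 bases before the start and runs directly into the SP1 motif at 19 bases, and the TEAD motif begins 103 bases before it. The Spp1 stretch holds none of the searched letters. Over the full 250 bases before the start, TATAAA was found in 4 of the 9 genes with an entry, among them Spp1 and Cyr61, and in 13% of 27025 promoters. GGAATG was in 1 of 9, Cyr61, and in 12.6% of promoters; GGGCGG was in 3 of 9 and in 32.9%. The AP-1 letters TGACTCA were in 1 of 9, Anxa2, and in 4.43%, and TGACGTCA in 0 of 9 and in 1.61%. A match describes letters and shows no binding.

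Clu encodes clusterin, an extracellular chaperone that is released by damaged tubules and taken up by megalin. It stood at 126, 108 and 106 CPM in controls 1, 2 and 3 and at 105, 110.4 and 133 in transgenic kidneys 1, 2 and 3. Both groups held 1 higher library and 2 lower ones. The log2 fold change was 0.04 ± 0.12 (SE; 95% interval -0.25 to 0.32), which spans 0.840-fold to 1.25-fold. Of 14 genes listed as clusterin receptors and complement regulators, 7 were in the table, 3 higher and 4 lower with a median of -0.06, and 0 passed the test. The smallest p-values were those of Serping1, the C1 inhibitor gene (-0.12), and Cd59a, which blocks the membrane attack complex (-0.15).

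Gdf15 encodes a stress hormone of the TGF-β superfamily that is induced by the integrated stress response and by p53. It was the least abundant of the 10, close to the floor of the deposited table: 3 of the 6 kidneys were inside the authors' filter for it, as for Cdkn1a, and all 6 for each of the other 8 genes. It stood at 7.31, 6.98 and 8.96 CPM in controls 1, 2 and 3 and at 9.29, 7.06 and 8.84 in transgenic kidneys 1, 2 and 3. Control 3 and transgenic kidneys 1 and 3 were the higher ones, and the other 3 lay between 6.98 and 7.31. Its 164 to 424 estimated counts per library give a counting error of 4.86% to 7.81%, against a spread of 13.2% over the 6 libraries. The log2 fold change was 0.11 ± 0.16 (SE, 95% interval -0.28 to 0.51), and it was 0.24 without control 3.

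Of 26 genes of the integrated stress response, 14 were in the table, 8 higher and 6 lower, with a median of 0.06 and 0 past the test. Nupr1, a stress-induced chromatin protein gene, had the smallest p-value. It stood at 26.3, 38.3 and 38.8 CPM in controls and at 27.4, 26.2 and 21.7 in transgenic kidneys (log2 fold change -0.46, 95% interval -0.89 to -0.03, unadjusted p = 0.0406, adjusted p = 0.997, edgeR). Slc3a2, the amino acid transporter heavy chain gene, was at 0.15.

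Krt8 and Krt18 encode the type II and type I keratins that pair to form the filaments of simple epithelia, and Krt7 encodes a second type II keratin of ducts. All 3 lie on chromosome 15 in the keratin cluster. Krt8 (101996711 to 102004342, mm10, minus strand) and Krt18 (102028216 to 102032026, plus strand) are neighbours with 23.9 kb between them, and Krt7 (101412403 to 101427806, plus strand) lies 569 kb away from Krt8. Krt8 stood at 153, 142 and 146 CPM in controls 1, 2 and 3 and at 147, 147 and 138 in transgenic kidneys 1, 2 and 3. Krt7 stood at 148, 146 and 136 CPM in controls and at 139, 137 and 132 in transgenic kidneys. Both were nearly level across the 6 kidneys. For Krt8 the log2 fold change was -0.03 ± 0.07 (SE; 95% interval -0.19 to 0.13), and the interval spans 0.875-fold to 1.09-fold. For Krt7 it was -0.07 ± 0.07 (SE; 95% interval -0.24 to 0.09), or 0.850-fold to 1.06-fold.

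Krt18 was lower in level and more variable, at 26.5, 30.1 and 23.3 CPM in controls 1, 2 and 3 and at 23.2, 20.6 and 25.3 in transgenic kidneys 1, 2 and 3. Control 2 was the highest and transgenic kidney 2 the lowest, and the other 4 lay between. The means were 26.6 ± 3.39 CPM (SD, n = 3) and 23.0 ± 2.33 (SD, n = 3), for a log2 difference of -0.21 ± 0.13 (SE; 95% interval -0.53 to 0.10). Its exact permutation p was 0.2, two-sided. Krt8 has an annotated processed pseudogene, and reads of close keratin copies may be split between genes, so their levels are uncertain to that extent.

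Levels were set side by side per kilobase of transcript. On that scale Spp1 came first at 253 ± 67.3 CPM per kilobase (SD, n = 6), and Krt7 (88.2 ± 3.88) and Krt8 (80.6 ± 2.92) followed. Clu came next at 63.4 ± 6.50, Anxa2 at 44.6 ± 4.35 and Vim at 31.3 ± 6.20. Krt18 stood at 17.7 ± 2.34, Cyr61 at 10.7 ± 2.41, Cdkn1a at 8.77 ± 2.06 and Gdf15 at 5.52 ± 0.727. Of the neighbours in this order, 5 pairs overlapped in their ranges over the 6 kidneys: Krt7 and Krt8, Anxa2 (39.0 to 50.5) and Vim (21.9 to 40.6), Krt18 (14.7 to 21.5) and Cyr61 (8.45 to 15.3), Cyr61 and Cdkn1a (6.13 to 11.5), and Cdkn1a and Gdf15. The order depends on the length used. With all annotated exons counted, Krt7 stood at 34.2, after Krt8 (74.3), Clu (63.4) and Anxa2 (42.6), and Cdkn1a stood at 4.57.

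Since the type I and type II keratins pair, their ratio within a library was read, which does not move with library size. Krt8 exceeded Krt18 per kilobase in all 6 kidneys, by 3.66 to 5.52 times. The ratio was 4.48, 3.66 and 4.85 in controls 1, 2 and 3 and 4.92, 5.52 and 4.22 in transgenic kidneys 1, 2 and 3. The log2 ratio differed by 0.18 ± 0.17 (SE) between the groups (exact permutation p = 0.4, adjusted p = 0.667 over 4 ratios, two-sided). The ratio of Krt7 to Krt8 was far steadier, from 1.06 to 1.17, and differed by -0.04 ± 0.04 on the log2 scale (exact permutation p = 0.5, adjusted p = 0.667). Which of the 2 keratins is higher depends on the length used: the mean ratio was 1.09 with transcript lengths and 0.46 with all annotated exons. Of 19 further keratin and other filament genes 3 were in the table, with 0 past the test: Des, the desmin gene, at 0.08, Krt10 at -0.05 and Lmna, the lamin A gene, at 0.02. Of 14 plakin and desmosome genes, which anchor keratin filaments, 9 were in the table, 6 higher and 3 lower. Their median was 0.02 and 0 passed; without control 3 it was -0.10, with 2 higher and 7 lower. Pkp4, a junction protein gene, was the 1 of these 9 whose groups did not overlap, beside 5.98% of all genes tested. It stood at 364, 347 and 344 CPM in controls and 318, 312 and 337 in transgenic kidneys (-0.13, unadjusted p = 0.112, edgeR).

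**Figure D2:**
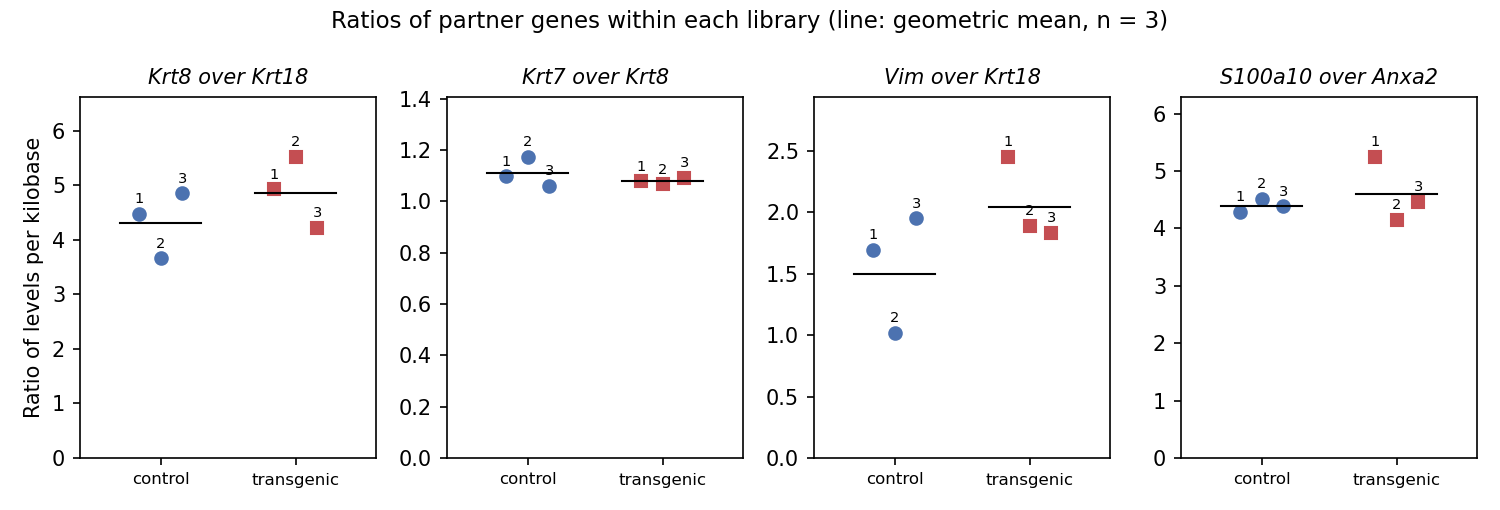
Ratio of levels per kilobase of 4 gene pairs in each library (y axes from 0), controls as circles and transgenic kidneys as squares, numbered by replicate; the lines are geometric means (n = 3). Krt8 exceeds Krt18 by 3.66 to 5.52 times in every library, and the groups overlap for each pair. The level of the Krt7 to Krt8 ratio depends on the lengths used, with a mean of 1.09 here and 0.46 with all annotated exons.

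Cell types that hold these keratins were read from their markers. Of 11 principal cell markers of the collecting duct 8 outside X were in the table, 3 higher and 5 lower, with a median of -0.06. Their summed level was 1006 to 1090 CPM in controls and 886 to 1028 in transgenic kidneys. Hsd11b2, which protects the mineralocorticoid receptor from corticosteroids, was the 1 principal cell marker without overlap, beside 5.98% of all genes tested. It stood at 140, 129 and 132 CPM in controls and 164, 143 and 145 in transgenic kidneys (0.17). Of 12 intercalated cell markers 11 were in the table, 10 higher and 1 lower, with a median of 0.11; without control 3 it was 0.02, with 8 higher and 3 lower. Slc26a4, the pendrin gene, was at 0.18 and Rhcg, an ammonia transporter gene, at 0.16. For the urothelium, another source of keratin 7, 1 of 12 markers was in the table, and the other 11 were not. That gene, Psca, was at 17.3, 18.5 and 26.8 CPM in controls and 7.74, 12.1 and 16.6 in transgenic kidneys (log2 fold change -0.78, 95% interval -1.52 to -0.05, unadjusted p = 0.0406, adjusted p = 0.997, edgeR). Without control 3 Psca was at -0.56. The part of these cell types in the keratin levels was not tested.

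Vim encodes vimentin, the filament protein of mesenchymal cells and podocytes that injured tubule cells also make. It had the largest positive difference of the 10. It stood at 58.9, 40.2 and 59.7 CPM in controls 1, 2 and 3 and at 74.5, 51.1 and 60.7 in transgenic kidneys 1, 2 and 3. Transgenic kidney 1 was the highest and control 2 the lowest, and transgenic kidney 2 was below 2 of the controls. The means were 52.9 ± 11.04 CPM (SD, n = 3) and 62.1 ± 11.8 (SD, n = 3), for a log2 difference of 0.23 ± 0.20 (SE; 95% interval -0.25 to 0.71). The value depended on which kidney was left out, at 0.07 without control 2, 0.08 without transgenic kidney 1 and 0.35 without transgenic kidney 2. Set against the epithelial keratin within each library, Vim was 1.70, 1.02 and 1.95 times Krt18 per kilobase in controls and 2.45, 1.89 and 1.83 times in transgenic kidneys (log2 difference 0.44 ± 0.31, SE; exact permutation p = 0.3, adjusted p = 0.667).

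Markers of the cells that express vimentin did not all lie on one side. The summed level of 4 podocyte markers in the table, of 10 listed, was 180, 153 and 200.2 CPM in controls and 249, 212 and 210.1 in transgenic kidneys, without overlap. The 4 vascular smooth muscle and pericyte markers in the table, of 8, were all higher, with a median of 0.09 and summed levels of 189 to 225 CPM in controls and 194 to 259.9 in transgenic kidneys. Of 4 fibroblast markers in the table, of 11, 2 were higher and 2 lower (441.6 to 528 CPM in controls, 421 to 470 in transgenic kidneys), and of 9 endothelial markers, of 13, 5 were higher and 4 lower (514 to 598 and 518 to 536 CPM). Of 8 macrophage and dendritic cell markers in the table, of 15, 1 was higher and 7 lower (345 to 394 and 302 to 371 CPM). Their median was -0.18, or -0.10 without control 3. Among these lists Acta2, the smooth muscle actin gene, was at 0.43 and Des at 0.08, while Cxcl12 of the fibroblast list was at -0.12. Plvap, a gene of endothelial diaphragms, was lower without overlap at -0.30 (unadjusted p = 0.0144, adjusted p = 0.997, edgeR), and the endothelial genes Ehd3 (0.32) and Eng (0.08) were higher without overlap. Over all genes tested, 2.93% were lower and 3.05% higher without overlap. The complement genes C1qa and C1qb of macrophages were at -0.25 and -0.22. Of 10 lymphocyte markers 1 was in the table, Igj, the joining chain gene, at -0.01. The podocyte list shares Cdkn1c with the list of cell cycle genes. The part of these cell types in the level of Vim was not tested.

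Anxa2 encodes annexin A2, which binds membranes in the presence of calcium and joins S100A10 in a heterotetramer that docks plasminogen. It stood at 64.2, 53.9 and 69.7 CPM in controls 1, 2 and 3 and at 60.9, 65.3 and 55.8 in transgenic kidneys 1, 2 and 3. The 6 values of the groups were interleaved, and the log2 fold change was -0.05 ± 0.12 (SE; 95% interval -0.32 to 0.23). Its partner S100a10 stood at 129, 114 and 143 CPM in controls and at 150.023, 127 and 117 in transgenic kidneys (0.03 ± 0.13, SE). Per kilobase S100a10 exceeded Anxa2 by 4.15 to 5.25 times in the 6 kidneys, and the log2 ratio differed by 0.07 ± 0.10 (SE; exact permutation p = 0.8, adjusted p = 0.8, two-sided). Of 26 annexin and S100 genes 15 outside X were in the table, 6 higher and 9 lower, with a median of -0.05; without control 3 it was 0.04, with 8 higher and 7 lower.

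Of these 15, 2 were lower without overlap, beside 2.93% of all genes tested, and none passed the test. S100a6, a calcium-binding protein gene, stood at 36.6, 44.6 and 58.6 CPM in controls and 35.0, 35.4 and 34.4 in transgenic kidneys (-0.42, 95% interval -0.83 to -0.01, unadjusted p = 0.0470, adjusted p = 0.997, edgeR). Control 3 was again the highest, and without it the value was -0.22. Anxa6, another annexin gene, was at -0.14.

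Cdkn1a encodes p21, an inhibitor of cyclin-dependent kinases and a main target of p53. It stood at 10.8, 16.2 and 12.3 CPM in controls 1, 2 and 3 and at 15.5, 8.69 and 11.1 in transgenic kidneys 1, 2 and 3. The highest and the lowest kidney differed by 1.87 times, and each group held both high and low kidneys. The log2 fold change was -0.15 ± 0.25 (SE; 95% interval -0.76 to 0.45), and it turned to 0.03 without control 2 and to 0.02 without transgenic kidney 2. The interval spans 0.590-fold to 1.37-fold, the widest of the 10.

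Of 42 genes of the p53 response and cell cycle arrest 21 were in the table, 10 higher and 11 lower, with a median of -0.01 and 0 past the test. Groups did not overlap in 3 of the 21, beside 5.98% of all genes tested. Mdm4, an inhibitor of p53, stood at 21.9, 25.3 and 18.2 CPM in controls and 30.7, 26.3 and 27.4 in transgenic kidneys (0.37, unadjusted p = 0.0394, adjusted p = 0.997, edgeR). Ccng1, the cyclin G1 gene and a p53 target, stood at 184, 187 and 218 CPM in controls and 161, 180.3 and 182 in transgenic kidneys (-0.17). Without control 3 Ccng1 was at -0.09. Cdk4, a kinase of the G1 phase, was at 0.11.

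**Figure D3:**
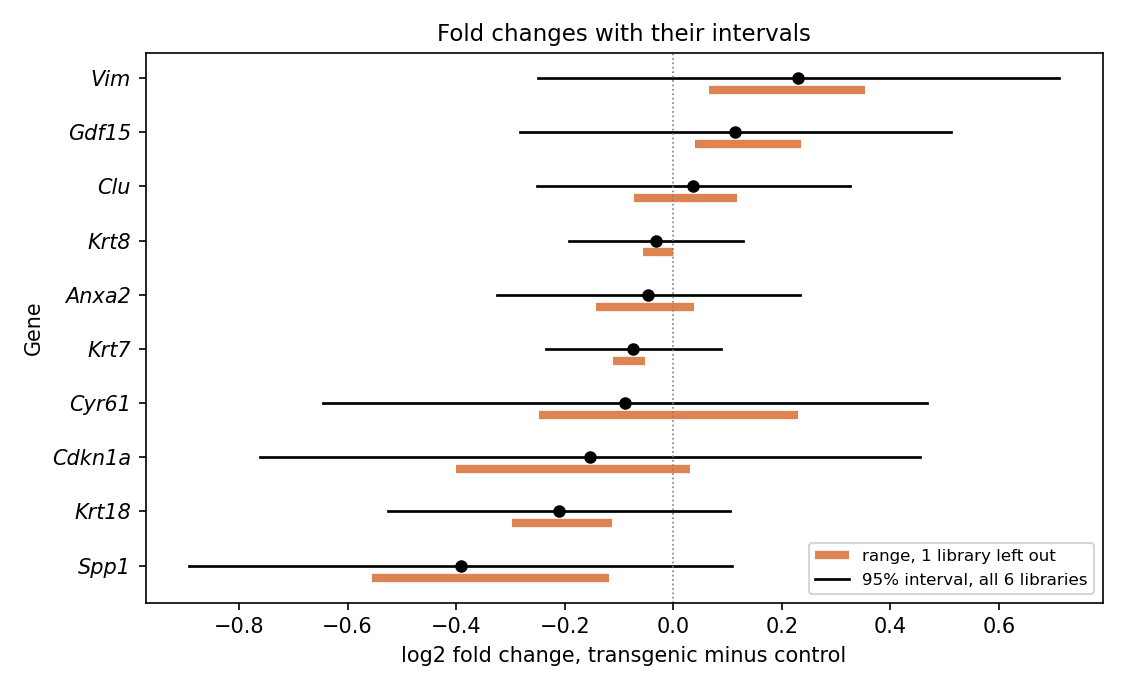
Log2 fold change of each gene (points) with its 95% interval over all 6 libraries (lines) and the range over the 6 fits that leave out 1 library (thick bars). All 10 intervals cross 0; that of Krt8 is the narrowest at -0.19 to 0.13, and that of Cdkn1a reaches from -0.76 to 0.45.

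The 10 genes differed in how steady they were from library to library. The SD between libraries of a group, on the log2 scale and pooled over both groups, was 0.05 for Krt7 and 0.06 for Krt8, at percentiles 5.42 and 5.67 of the 7194 genes outside X and Y, whose median was 0.14. It was 0.16 for Anxa2 and for Clu, 0.17 for Krt18 and 0.20 for Gdf15. It was 0.30 for Vim and Spp1, 0.33 for Cyr61 and 0.37 for Cdkn1a, between percentiles 92.7 and 96.7. In Spp1 and Cyr61 this spread came from the controls, where the coefficient of variation was 30.7% and 34.3%, against 3.84% and 0.658% in transgenic kidneys. In Vim and Cdkn1a both groups varied, by 20.9% and 18.9% for Vim and by 21.6% and 29.4% for Cdkn1a.

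**Figure D4:**
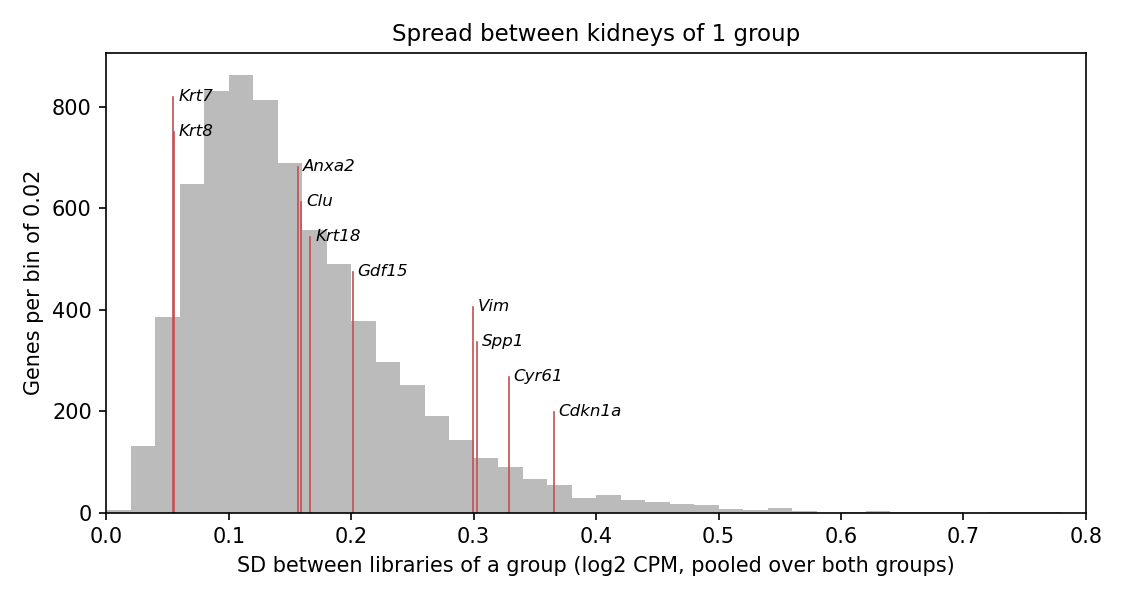
Histogram of the SD between libraries of a group (log2 CPM, pooled over both groups) for genes outside X and Y, in bins of 0.02 and shown up to 0.8, with lines at the 10 genes. Krt7 and Krt8 lie at the low end (0.05 and 0.06), and Vim, Spp1, Cyr61 and Cdkn1a in the upper tail (0.30 to 0.37).

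The genes whose levels ran most like each of the 10 over the 6 libraries were taken from the 7193 others outside X and Y by Pearson correlation of log2 CPM; with 6 points and so many genes, high values arise readily. For Spp1 they were Msantd4 (r = 0.999, rho = 0.943) and Rab18 (r = 0.999, rho = 1), both highest in control 3, at 55.8 and 125 CPM there. For Cyr61 they were Nifk (r = 0.992, rho = 0.943) and Cyp2j11 (r = 0.991, rho = 0.829), also highest in control 3. For Vim they were Gstt2 (r = 0.981, rho = 0.943) and Zfp622 (r = 0.978, rho = 0.829), both highest in transgenic kidney 1 and lowest in control 2. For Cdkn1a they were Esrrb (r = 0.986, rho = 0.943) and Pitpna (r = 0.9746, rho = 0.886), and for Gdf15 Car14 (r = 0.989, rho = 0.943) and Fads1 (r = 0.982, rho = 1). The pairs for the remaining 5 genes had r of 0.943 to 0.992.

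Genes around the 10 were read from lists of their pathways. Over all genes tested, 3.05% were higher and 2.93% lower without overlap, and the genes named from a list were picked by smallest p. Of 23 receptors and matrix partners of osteopontin 8 were in the table, 5 higher and 3 lower, with a median of 0.02, and 2 were higher without overlap: Timp2, a metalloproteinase inhibitor gene (39.5, 37.8 and 35.9 CPM in controls, 42.2, 41.0 and 41.8 in transgenic kidneys; 0.14), and Itgb5, the integrin β5 gene (0.09). Of 30 genes of the CCN family and of the YAP and TEAD pathway 12 were in the table, 4 higher and 8 lower, with a median of -0.03; without control 3 it was 0.03, with 7 higher and 5 lower. Axl, a receptor kinase gene and YAP target, was at 30.0, 28.7 and 26.5 CPM in controls and 32.1, 35.4 and 31.7 in transgenic kidneys (0.22), and Yap1 itself at 58.7, 58.5 and 53.4 and at 61.9, 59.7 and 62.7 (0.11). Both were higher without overlap, while Cyr61 was not, with control 3 its highest library. Without control 3 the log2 fold change of Cyr61 was 0.23. Of 21 immediate early genes 9 were in the table, 7 higher and 2 lower, with a median of 0.16, or 0.06 without control 3. Junb, an AP-1 subunit gene, was the 1 without overlap, at 13.6, 16.5 and 17.2 CPM in controls and 20.7, 20.3 and 18.0 in transgenic kidneys (0.32, unadjusted p = 0.0411, adjusted p = 0.997, edgeR).

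Of 40 other injury and repair genes 18 were in the table, 10 higher and 8 lower, with a median of 0.01 and 0 without overlap. Met, the hepatocyte growth factor receptor gene, was at -0.25, or -0.12 without control 3, and Icam1, an adhesion molecule gene, at 0.19. The 24 differentiated tubule genes, which injured tubules lose, were 13 higher and 11 lower with a median of 0.01. Epcam, an epithelial adhesion gene, was the 1 without overlap among them. It stood at 92.0, 85.6 and 96.6 CPM in controls and 81.2, 81.5 and 82.9 in transgenic kidneys (-0.16, unadjusted p = 0.0734, edgeR). Of all genes tested, 2.93% were lower without overlap, the share to set beside this list and those that follow. All 14 proximal tubule markers were in the table; 5 were higher and 9 lower (median -0.12, and -0.04 without control 3), with Slc7a13, an amino acid transporter gene, lower without overlap at -0.25 (unadjusted p = 0.0133, adjusted p = 0.997, edgeR). All 10 thick ascending limb markers were in the table, 2 higher and 8 lower, with a median of -0.08; Ptger3, a prostaglandin receptor gene, stood at 49.9, 53.4 and 57.5 CPM in controls and 37.4, 41.2 and 41.5 in transgenic kidneys, without overlap (-0.42, unadjusted p = 0.00234, adjusted p = 0.997, edgeR). Of 14 inner medulla and thin limb markers 11 were in the table, 1 higher and 10 lower, with a median of -0.09, and S100a6 was the 1 without overlap; without control 3 the split was 4 higher and 7 lower. Some of these lists share genes. Egf and Umod are in both the injury and repair list and the thick ascending limb list. Lrp2, Cubn, Slc34a1, Slc5a2, Slc5a12, Slc22a6 and Acsm2 are in both the differentiated and the proximal tubule lists. Across all 23 lists 0 genes passed the threshold.

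**Figure D5:**
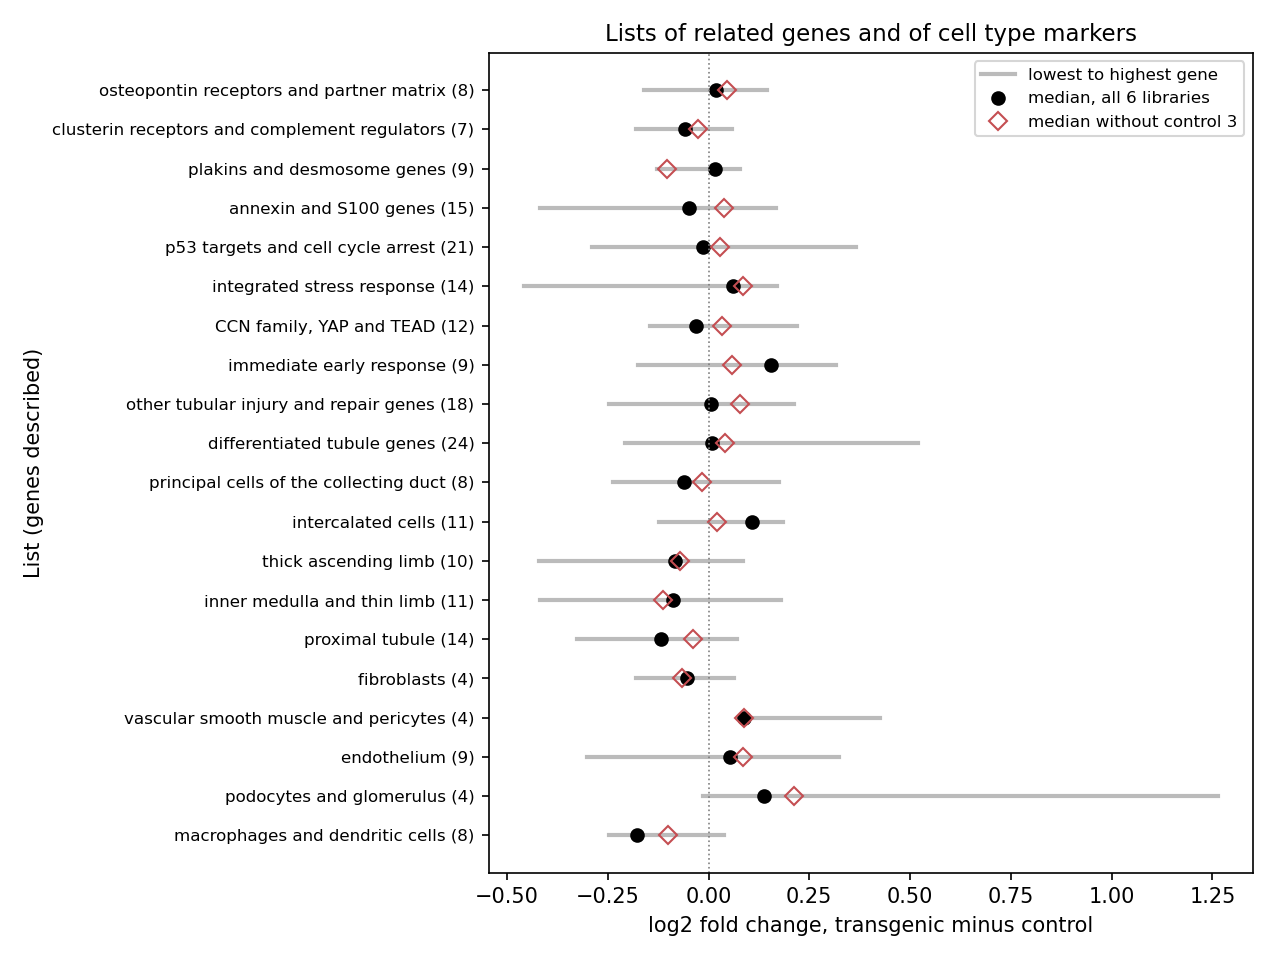
Median log2 fold change of each list of related genes or cell type markers with at least 4 genes described (number in brackets), over all 6 libraries (filled) and without control 3 (open), with the range from the lowest to the highest gene as a bar. Over all 6 libraries the medians lie between -0.18 (macrophages) and 0.16 (immediate early response). Without control 3 that of the podocyte list is 0.21.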

How the data were processed

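Kidney RNA was sequenced in 3 control and 3 transgenic samples. Of 24 columns of values for single samples, 6 were used and 18 were not used here. The 6 columns hold estimated counts as deposited by the authors, which are not all whole numbers; the genome build was mm10 per the submitters' processing notes, while an aligner and counter are not given in the sources used. Per the file headers, genes were kept with an NRPKM of 5.0 to 84233.281 in at least 2 of 6 samples, so genes low in nearly all kidneys are missing. Of 7373 rows 7362 were matched by gene ID or symbol to RefSeq on GRCm38.p6.

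Counts were rounded and tested with edgeR (4.0.16, R 4.3.3; filterByExpr, TMM, quasi-likelihood, group only), adjusted by Benjamini-Hochberg over 7372 genes at a threshold of 0.05. Levels are CPM on TMM library sizes, and permutation tests used log2 CPM with a prior count of 0.5. Standard errors and 95% intervals come from the same fit. Levels per kilobase used GENCODE vM21 transcripts paired with RefSeq, clipped to the RefSeq gene. The analysis was tested on simulated data. Alternatives were DESeq2 (1.42.0) and its size factors, limma (3.58.1) with array weights, other filters, the replicate number as a block, X and Y genes left out, and each library left out. The 10 genes, the 23 lists and the tests were chosen with earlier results of these data known. From each list the text names genes past the threshold, then up to 3 by smallest p among those without overlap, otherwise the 2 with the smallest p; S100a10; and 2 genes most like each of the 10. Lmna, named beside the 2 others of its list, was chosen after its values were seen. Among the genes this rule names, 2 are not reported here.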

Additional observations from a re-analysis of the deposited data

How the results depend on the processing

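None of the 10 genes passed the threshold in any of 20 alternative fits each, and 6 of them (Spp1, Gdf15, Krt8, Krt18, Krt7 and Vim) kept their sign in all 20. These fits reuse the same libraries, so a kept sign says little about steadiness. Krt8, for example, ran from -0.074 to -0.00061. With limma array weights Clu turned to -0.087, Cyr61 to 0.15 and Cdkn1a to 0.068. Leaving out 1 library gave ranges of -0.073 to 0.12 for Clu, -0.25 to 0.23 for Cyr61, -0.14 to 0.039 for Anxa2 and -0.40 to 0.030 for Cdkn1a. Single values that turned were, for Clu, -0.0089 without control 3; for Anxa2, 0.011 without transgenic kidney 3; and for Cdkn1a, 0.023 without transgenic kidney 2. When the genes of X and Y were also dropped, these values were -0.073 and -0.0088 for Clu, 0.23 for Cyr61, 0.039 and 0.011 for Anxa2, and 0.030 and 0.021 for Cdkn1a. Spp1 ran from -0.56 to -0.12, nearest to 0 without control 3. Its smallest unadjusted p was 0.0073 (adjusted p = 0.58), by edgeR without control 2 and without X and Y genes. The smallest for Krt18 was 0.036, by edgeR without control 3, and for Krt7 0.047, by limma with array weights. The other genes stayed above 0.05 in every fit. The log2 ratio of S100a10 to Anxa2 differed by -0.030 (without transgenic kidney 1) to 0.14. The cause was not tested.

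The count of genes past the threshold was 0 with edgeR, 2 with DESeq2 and 1 with limma array weights. It was 1 with X and Y genes left out, also with the replicate block. It ranged from 0 to 2 when 1 library was left out, with or without X and Y genes. None of the called genes is among the 10. Deviations of same-numbered libraries from their group means correlated at -0.01, -0.03 and 0.33, and those of differently numbered libraries at -0.43 to 0.43. Deviations cancel within a group, so these values cannot settle whether the samples were paired, and the labels state no pairing. With the replicate block alone the count stayed at 0, and Spp1 was at -0.35.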
